A study of Mus musculus with 6 samples.

Results

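The nuclear-encoded genes of the mitochondrial respiratory chain were compared between haematopoietic stem cells (HSCs) of old and of young mice. Members were the genes of the deposited count table whose mouse symbol begins with Nduf, Uqcr, Cox4 to Cox8 or Atp5, or is Sdha, Sdhb, Sdhc or Sdhd. The rule used symbols only and found 89 of 16312 genes, all annotated as protein-coding and spread over 19 chromosomes, with none on the mitochondrial genome. They comprise 36 subunits of complex I, 8 complex I assembly factors (Ndufaf1 to Ndufaf8), 4 genes of complex II, 8 of complex III, 16 of complex IV and 17 of complex V. Ndufa4, first named as a complex I subunit, was placed with complex IV, where it is now known to sit. HSCs were sorted by flow cytometry from bone marrow, and their RNA was sequenced as single-end reads of 50 bases. The old group held 3 samples from male mice aged 22 months and the young group 3 samples from male mice aged 8 to 12 weeks. Both are labelled as B6 controls of a parabiosis study, and the series title gives C57BL/6N. No mutation, transgene or drug is given for either group, and each library is described as a biological replicate.

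The respiratory chain passes electrons from NADH (complex I) and succinate (complex II) through coenzyme Q to complex III, and then through cytochrome c to oxygen at complex IV. Complexes I, III and IV pump protons across the inner mitochondrial membrane, and complex V, the ATP synthase, uses the returning protons to make ATP. Most subunits are made from nuclear genes and imported, and a few at the core of complexes I, III, IV and V are made from mitochondrial DNA. Quiescent HSCs are known for leaning on glycolysis and for keeping respiration low, and they raise it when they divide and differentiate.

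Many of these genes are known targets of the nuclear respiratory factor NRF1, of ETS factors such as GABP, and of YY1. Promoters of 300 bases (250 before and 50 from the start onward, RefSeq, GRCm38.p6) were matched for 73 members. The NRF1 core letters GCATGCGC stood, on either strand, in 12 of these 73 (16.4%), in 3.05% of all 27025 genes with a promoter and in 5.07% of the 12471 genes of the count table with one. The ETS letters CCGGAAG stood in 18 (24.7%), against 9.93% of all and 16.8% of table genes. The YY1 letters AAGATGGCG stood in 8 of 73, against 1.64% and 2.90%. The letters CCAAT stood in 45.2% of members and 42.5% of table genes, and TATAAA in 8.22% and 10.9%. All letters were searched on both strands, and no motif contains another. Of the promoters below, those of Cox7a2 and Ndufa9 belong to the members with the smallest p-values of complexes IV and I, and those of Cox6a1 and Atp5k to members with estimates close to 0 that carry NRF1 and ETS letters. Capitals mark the NRF1, ETS and YY1 letters, and each sequence runs along the strand of its gene.
Cox7a2: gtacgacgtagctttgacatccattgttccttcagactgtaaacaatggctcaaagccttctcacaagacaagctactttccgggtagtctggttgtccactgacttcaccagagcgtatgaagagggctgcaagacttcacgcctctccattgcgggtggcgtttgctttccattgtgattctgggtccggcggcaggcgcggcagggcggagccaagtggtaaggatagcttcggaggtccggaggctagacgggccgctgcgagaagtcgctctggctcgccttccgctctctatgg
Ndufa9: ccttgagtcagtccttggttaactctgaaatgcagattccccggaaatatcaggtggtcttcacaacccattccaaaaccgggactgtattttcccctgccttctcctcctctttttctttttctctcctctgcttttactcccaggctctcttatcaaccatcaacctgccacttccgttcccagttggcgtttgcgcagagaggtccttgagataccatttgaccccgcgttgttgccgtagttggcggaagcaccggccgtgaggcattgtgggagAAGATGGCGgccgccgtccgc
Cox6a1: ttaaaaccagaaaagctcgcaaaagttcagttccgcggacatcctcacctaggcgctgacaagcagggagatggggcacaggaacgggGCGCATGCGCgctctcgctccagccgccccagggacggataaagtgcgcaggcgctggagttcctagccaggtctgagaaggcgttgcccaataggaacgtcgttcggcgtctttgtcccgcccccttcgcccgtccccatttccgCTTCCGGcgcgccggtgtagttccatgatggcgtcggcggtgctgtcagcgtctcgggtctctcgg
Atp5k: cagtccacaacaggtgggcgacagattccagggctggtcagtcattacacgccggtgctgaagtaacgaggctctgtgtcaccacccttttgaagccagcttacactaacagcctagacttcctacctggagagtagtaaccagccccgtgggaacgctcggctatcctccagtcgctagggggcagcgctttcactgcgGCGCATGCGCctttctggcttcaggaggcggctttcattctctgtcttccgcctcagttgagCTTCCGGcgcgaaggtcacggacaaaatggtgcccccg

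These windows are chr9:79759804-79760103 (minus strand, Cox7a2), chr6:126849095-126849394 (minus strand, Ndufa9), chr5:115348909-115349208 (minus strand, Cox6a1) and chr5:108434350-108434649 (minus strand, Atp5k). In Cox6a1 and Atp5k the NRF1 letters stood on both strands in overlap, and the joined run covered 162 to 153 and 50 to 41 bases before the start. In Cox7a2 the searched letters were not in this window. The median log2 fold change, old over young, was −0.06 over the 12 members with the NRF1 letters and −0.02 over the 60 tested members without them. It was 0.05 over the 18 with and −0.06 over the 54 without the ETS letters, and 0.05 over the 8 with and −0.03 over the 64 without the YY1 letters.

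None of the 88 members that passed the filter on low counts differed between old and young HSCs at an adjusted p of 0.05 (edgeR quasi-likelihood test, Benjamini-Hochberg adjustment over all genes). Of all 14288 genes tested, 3.99% passed (2.45% higher and 1.54% lower in old mice). Of the 9268 genes at 10 CPM or more (CPM, counts scaled to a common library size), 4.97% passed. Over all genes 570 passed, against 322, 345 and 245 when old replicate 1, 2 or 3 was left out, and no member passed in any of these fits. Estimates lay above 0 for 43 members and below 0 for 45, with a median log2 fold change of −0.01, beside −0.02 over all genes tested. With library size as the only scaling, 32 lay above 0 and 56 below, and the median over all genes moved to −0.07. The median size of the estimate, regardless of sign, was 0.15 on the log2 scale for the members and 0.26 for all genes tested. It was 0.20 for the genes at 10 CPM or more, a level that 83 of the 88 tested members reached. At an unadjusted p under 0.05 stood 4 members (4.55%), namely Cox7a2, Ndufa9, Ndufaf8 and Uqcr10, against 16.5% of all genes tested. The CPM of the 3 old and 3 young libraries did not overlap for 11 members (12.5%), against 22.4% of all genes. Among these, 3 were higher in old mice, against 11.6% of all genes, and 8 were lower, against 10.8%. DESeq2, run on the same genes, called 1 member, Cox7a2 (adjusted p = 0.0324), against 8.05% of the genes to which it gave an adjusted p.

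The width of the intervals says which differences the 6 libraries left room for. A missed threshold does not show that the ages were equal. The median standard error (SE) of a member's log2 fold change was 0.20. The 95% confidence interval lay within a 2-fold difference in either direction for 80 of the 88 tested members (90.9%), and within 1.5-fold for 46. Of the 9268 genes at 10 CPM or more, 7690 (83.0%) lay within 2-fold and 3909 within 1.5-fold. The 8 members not within 2-fold were Ndufaf3, Ndufaf6, Ndufaf8, Ndufb6, Cox4i2, Cox6b2, Cox7a1 and Atp5s, each among the 12 members with the lowest CPM. Cox7b2 was the only member under the filter.

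**Figure D1:**
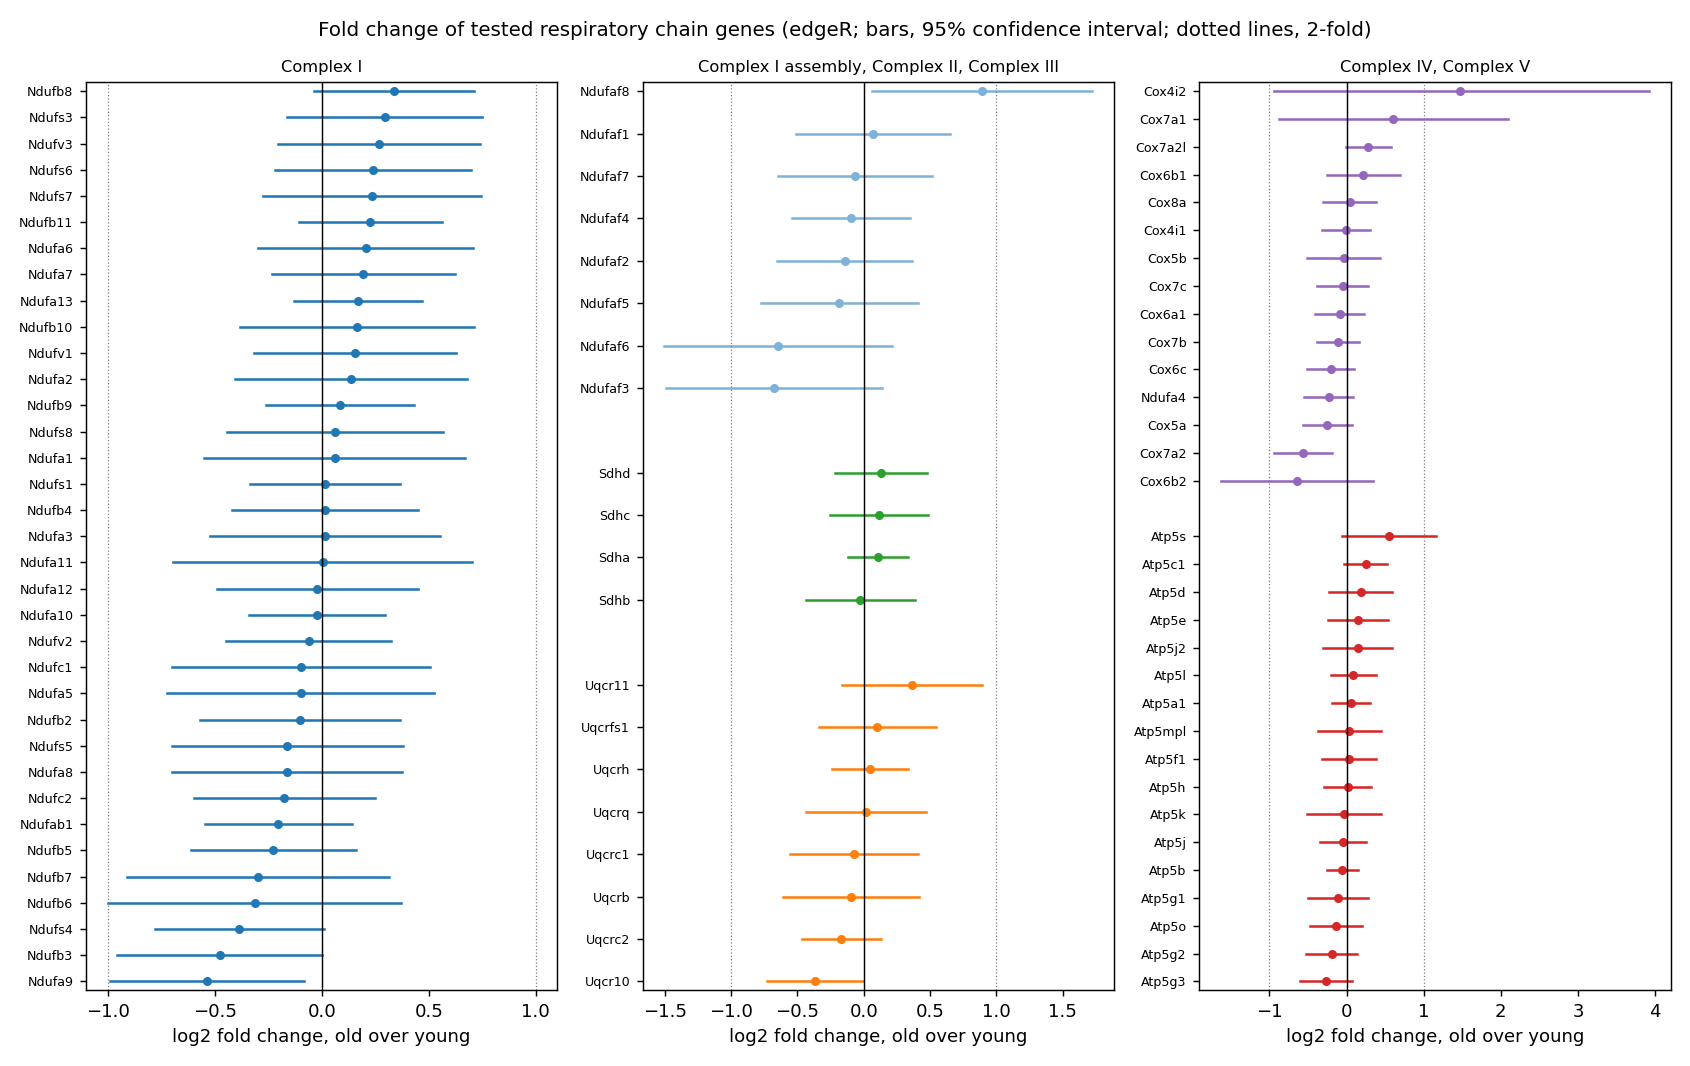
Log2 fold change, old over young, of the tested members except 1 that is not named, ordered within each complex, with points for the edgeR estimates and bars for 95% confidence intervals. The horizontal scale differs between panels, and dotted lines mark a 2-fold difference, between which most intervals lie.

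**Figure D2:**
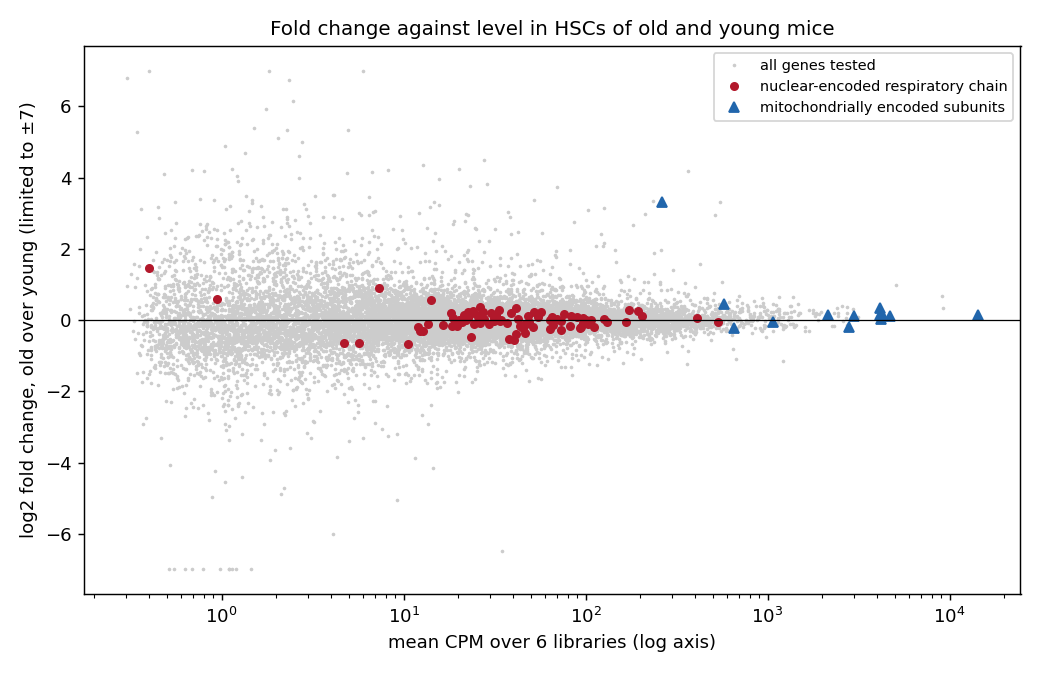
Log2 fold change, old over young, against mean CPM (log axis) for 14288 tested genes (grey), the 88 tested members (red) and the 13 mitochondrially encoded subunits (blue triangles). The members lie between 0.398 and 531 CPM and from −0.68 to 1.47 on the log2 scale, with Cox4i2 at the upper end and the lowest CPM, and the triangle far above 0 is mt-Nd3, with a log2 value of 3.32.

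Library totals ran from 12494557 counts in old replicate 2 to 30931680 in young replicate 3, and members took 65124 to 172372 counts per library. All 12 listed HSC markers were measured, with summed levels of 4453 to 4865 CPM in old and 4153 to 4817 CPM in young libraries, and Procr and Slamf1 were higher in old mice. Of 15 proliferation genes 12 were lower in old mice, with sums of 1947 to 2529 CPM in old and 3876 to 4514 CPM in young libraries. Of 11 tested macrophage markers 9 were lower, with sums of 18.2 to 32.8 CPM in old and 79.7 to 92.8 CPM in young libraries, and 4 of the 12 listed had no count in any old library. Neutrophil markers summed to 5.57 to 8.79 CPM in old and 16.7 to 240 CPM in young libraries (4 of 5 tested lower). Of 9 tested erythroid markers 2 were lower, Car1 and Klf1. Their sums of 724 to 890 CPM in old and 789 to 1122 CPM in young libraries were 92.0% Car2, and without Car2, a sum added after the first was seen, they were 19.7 to 25.4 CPM in old and 55.03 to 212 CPM in young libraries, without overlap. B cell markers summed to 17.0 to 20.7 CPM in old and 17.4 to 21.9 CPM in young libraries (0 of 3 passed), and T and NK cell markers to 8.38 to 12.7 and 12.99 to 22.3 CPM (0 of 4 passed). Megakaryocyte markers summed to 557 to 685 CPM in old and 233 to 302 CPM in young libraries (2 of 7 higher, Vwf and Itgb3). Itgb3 made up 53.5% of this sum, and Vwf averaged 206 CPM in old and 38.3 CPM in young mice. Pf4 was lower in old mice without overlap but did not pass (log2 value −0.66, edgeR adjusted p = 0.0969). Gp1ba and Ppbp also had estimates below 0, and Gp9 and Itga2b above 0. Endothelial markers summed to 205 to 252 CPM in old and 128 to 199 CPM in young libraries (3 of 6 higher). The part of these cell types and of cell division in the members' values was not tested. In bulk RNA, fewer cells of a type and less RNA per cell cannot be told apart. The old libraries are numbered 28 to 30 and the young ones 1, 5 and 24 in the labels, and steps that followed this numbering cannot be told apart from age.

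By the median level over its genes relative to transcript length, complex V stood highest, complex IV next, and the complex I assembly factors lowest. The median level per kilobase of transcript was 124 in old and 122 in young mice for complex V, and 107 in both for complex IV (CPM per kilobase). Complexes II and III had medians of 66.0 and 66.0 in old mice and 60.7 and 62.8 in young mice. Complex I had a median of 40.0 in old and 37.1 in young mice, and the assembly factors 14.3 and 12.9. The highest level per kilobase over all 6 libraries was that of Cox7c (308), a small complex IV subunit, followed by Atp5b (277), Uqcrh (204), Ndufa4 (202) and Atp5c1 (195). Uqcrh and Ndufa4 differed from each other by less than the spread of either over libraries. The lowest were Cox7b2 (0.414), Cox4i2 (0.546) and Cox7a1 (2.14). These levels rest on annotated transcript lengths and do not account for the positions that this library kit covers.

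**Figure D3:**
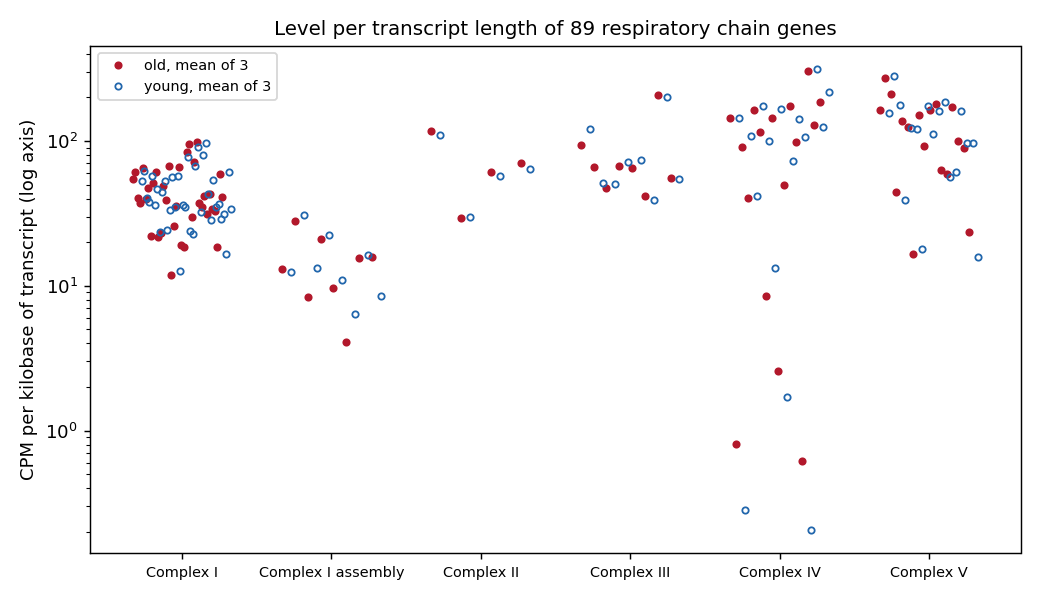
CPM per kilobase of transcript (log axis) for all 89 members by complex, in symbol order within each, with filled points for the mean of 3 old and open points for the mean of 3 young libraries. Old and young points lie close together for most members, and the complex IV genes far below the rest are Cox7b2, Cox4i2 and Cox7a1, with Cox6b2 above them.

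Complex I, the NADH dehydrogenase, had 19 subunit genes above 0 and 17 below, estimates from −0.54 to 0.34 on the log2 scale and a median of 0.01. The 7 core subunits, which carry the flavin and the iron-sulfur clusters, had a median of 0.06, and the 29 accessory subunits a median of −0.02. Ndufa9, an accessory subunit near the coenzyme Q site on chromosome 6 from 126821721 to 126849136 (GRCm38), stood at 35.0, 25.7 and 31.7 CPM in the old libraries, against 42.3, 55.4 and 37.0 CPM in the young ones. The groups did not overlap, but young replicate 3 lay within 2 CPM of old replicate 1. Its log2 fold change was −0.54 ± 0.21 SE (edgeR adjusted p = 0.206).

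Ndufb3, a subunit of the membrane arm, had 17.7, 18.6 and 22.40 CPM in old mice, against 29.6, 30.0 and 22.41 CPM in young mice, so that old replicate 3 and young replicate 3 were nearly level (log2 fold change −0.48 ± 0.22 SE). Ndufs4, an accessory subunit of the NADH-oxidising module whose loss causes a Leigh-like disease in mice, had 42.9, 30.7 and 34.6 CPM in old mice, against 44.3, 47.2 and 50.2 CPM in young mice (−0.39 ± 0.18 SE). Ndufb8, another membrane arm subunit, lay on the other side of 0, at 42.6, 43.4 and 53.1 CPM in old mice, against 38.4, 34.6 and 37.1 CPM in young mice (0.34 ± 0.17 SE). In each of these 3 genes the groups did not overlap, and none passed (edgeR adjusted p = 0.304, 0.32 and 0.369). Of the core subunits, Ndufs3 averaged 36.7 ± 6.97 CPM in old and 30.0 ± 4.50 CPM in young mice, with overlap (SD, n = 3 each). It was chosen with its values in view. The 2 subunit genes with the highest CPM overlapped between the ages. Ndufa13, also known as GRIM-19, had 81.0 ± 7.77 CPM in old and 72.0 ± 3.16 CPM in young mice, and Ndufa10, a kinase-like accessory subunit, had 72.6 ± 7.60 and 73.9 ± 6.19 CPM (SD, n = 3 each).

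The Ndufaf assembly factors, which build complex I and are not part of the finished enzyme, had a median log2 fold change of −0.12, with 2 above 0 and 6 below. Ndufaf8, which stabilises the assembly factor Ndufaf5, stood at 7.13, 9.90 and 11.6 CPM in old mice, against 3.32, 5.45 and 6.63 CPM in young mice. All old libraries lay above all young ones, and its log2 fold change of 0.89 ± 0.38 SE was the largest estimate of the group in size (edgeR adjusted p = 0.269). Ndufaf5 itself, a hydroxylase of the core subunit Ndufs7, averaged 11.2 ± 1.77 CPM in old and 12.7 ± 0.964 CPM in young mice (SD, n = 3 each). Ndufaf3 had 9.24, 7.72 and 7.51 CPM in old mice, against 20.4, 11.5 and 7.34 CPM in young mice. Young replicate 1 stood apart, and the estimate of −0.68 ± 0.37 SE was −0.20 without that library. Ndufaf6 had 3.46, 4.53 and 5.27 CPM in old mice, against 5.41, 6.39 and 8.93 CPM in young mice, without overlap (−0.65 ± 0.39 SE, edgeR adjusted p = 0.47).

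Complex II, the succinate dehydrogenase that also works in the citrate cycle, had a median log2 fold change of 0.11, the highest of the complexes, and none of its 4 genes had an unadjusted p under 0.05. Sdha, the flavoprotein that oxidises succinate, stood at 211, 222 and 206 CPM in old mice, against 194, 199 and 200 CPM in young mice. The groups did not overlap, but the difference was small (log2 fold change 0.11 ± 0.10 SE, 95% interval −0.12 to 0.33, edgeR adjusted p = 0.683). The iron-sulfur subunit Sdhb averaged 33.7 ± 4.604 CPM in old and 34.3 ± 2.70 CPM in young mice. The membrane anchors Sdhc (50.1 ± 6.83 and 46.4 ± 3.77 CPM in old and young mice) and Sdhd (86.8 ± 9.36 and 79.4 ± 14.1 CPM) overlapped between the ages (SD, n = 3 each).

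Complex III, the cytochrome bc1 complex, had a median log2 fold change of −0.03 over 8 genes, 4 above and 4 below 0. Uqcr10, a small subunit on chromosome 11 from 4701973 to 4704342, stood at 41.2, 39.7 and 40.9 CPM in old mice, against 60.0, 46.9 and 50.1 CPM in young mice. The old libraries lay within 2 CPM of each other and below all young ones (log2 fold change −0.37 ± 0.17 SE, edgeR adjusted p = 0.298). Uqcr11, another small subunit, lay on the other side of 0 with overlap, at 29.6 ± 7.78 CPM in old and 22.9 ± 3.32 CPM in young mice (0.37 ± 0.24 SE). The Rieske iron-sulfur protein Uqcrfs1 averaged 56.8 ± 11.4 and 52.9 ± 11.8 CPM in old and young mice, the core protein Uqcrc2 77.2 ± 3.09 and 86.9 ± 8.48 CPM, and the hinge protein Uqcrh 98.2 ± 5.92 and 95.1 ± 8.67 CPM (SD, n = 3 each).

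Complex IV, cytochrome c oxidase, held the member with the smallest p. Cox7a2, the form of subunit 7a used in most tissues, on chromosome 9 from 79755361 to 79759878, stood at 30.5, 36.2 and 31.1 CPM in old mice, against 52.0, 48.2 and 43.8 CPM in young mice. Every old library lay below every young one, and the log2 fold change was −0.56 ± 0.17 SE (95% interval −0.94 to −0.18). The gene did not pass (edgeR adjusted p = 0.105), and its adjusted p ran from 0.0324, where DESeq2 called it, to 0.3298 over the alternatives. Over its 15 tested genes, complex IV had a median log2 fold change of −0.05, with 5 above 0 and 10 below. Of the 11 widely expressed subunits, 9 had estimates below 0, with a median of −0.09, and 2 lay above 0. Among all 14288 genes tested, 7404 lay below 0. Cox5a had 57.8, 59.3 and 58.1 CPM in old mice, against 69.7, 62.1 and 76.5 CPM in young mice, without overlap (−0.25 ± 0.15 SE, edgeR adjusted p = 0.446). Cox4i1, Cox6a1, Cox7b, Cox7c and Cox8a had estimates from −0.11 to 0.04, Cox6b1 stood at 0.22 and Ndufa4 at −0.23, each with overlap.

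Some complex IV subunits exist in several forms, and their use was compared as shares of the family's level per kilobase. Cox7a2l, also called SCAF1, is known for helping to join complexes III and IV into supercomplexes. Supercomplexes and the Cox7a2l protein were not measured, so whether its product has this role in these mice cannot be told from RNA. The Cox7a2l RNA stood at 206, 157 and 212 CPM in old mice, against 164, 155 and 153 CPM in young mice. Old replicates 1 and 3 lay above all young libraries and old replicate 2 among them (log2 fold change 0.28 ± 0.13 SE, edgeR adjusted p = 0.313). Of the Cox7a family, Cox7a2 made up 19.7%, 27.5% and 19.4% in old mice, against 34.2%, 34.1% and 32.3% in young mice, and Cox7a2l made up 79.6%, 71.1% and 79.2% in old mice, against 64.5%, 65.4% and 67.2% in young mice. The shares did not overlap between the ages, and an exact permutation test of 3 against 3 samples could not give a p under 0.1. This split was looked at after the values of both genes were seen.

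Among the tissue-restricted forms, Cox4i2, Cox7a1 and Cox7b2 were scarce at both ages. Cox6b2 was higher, at 3.68 ± 1.32 CPM in old and 5.74 ± 1.67 CPM in young mice (SD, n = 3 each). Cox4i2, known as a form of lung and of cells low in oxygen, had 8, 10 and 13 counts in the old libraries and 0, 15 and 1 in the young ones, and made up at most 0.756% of the Cox4 family in any library. Cox7a1, the heart and muscle form, averaged 1.13 ± 0.368 CPM in old and 0.747 ± 0.462 CPM in young mice (SD, n = 3 each). Cox6b2, known from testis, made up 11.9%, 5.86% and 4.13% of the Cox6b family in old mice, against 10.04%, 8.75% and 17.0% in young mice, with overlap. Cox7b2, also known from testis, had 10, 1 and 11 counts in old and 0, 7 and 2 counts in young libraries and was not tested. The symbols Cox6a2, Cox8b, Cox8c and Ndufa4l2 were not among the genes of the deposited counts, so no level can be given for them.

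**Figure D4:**
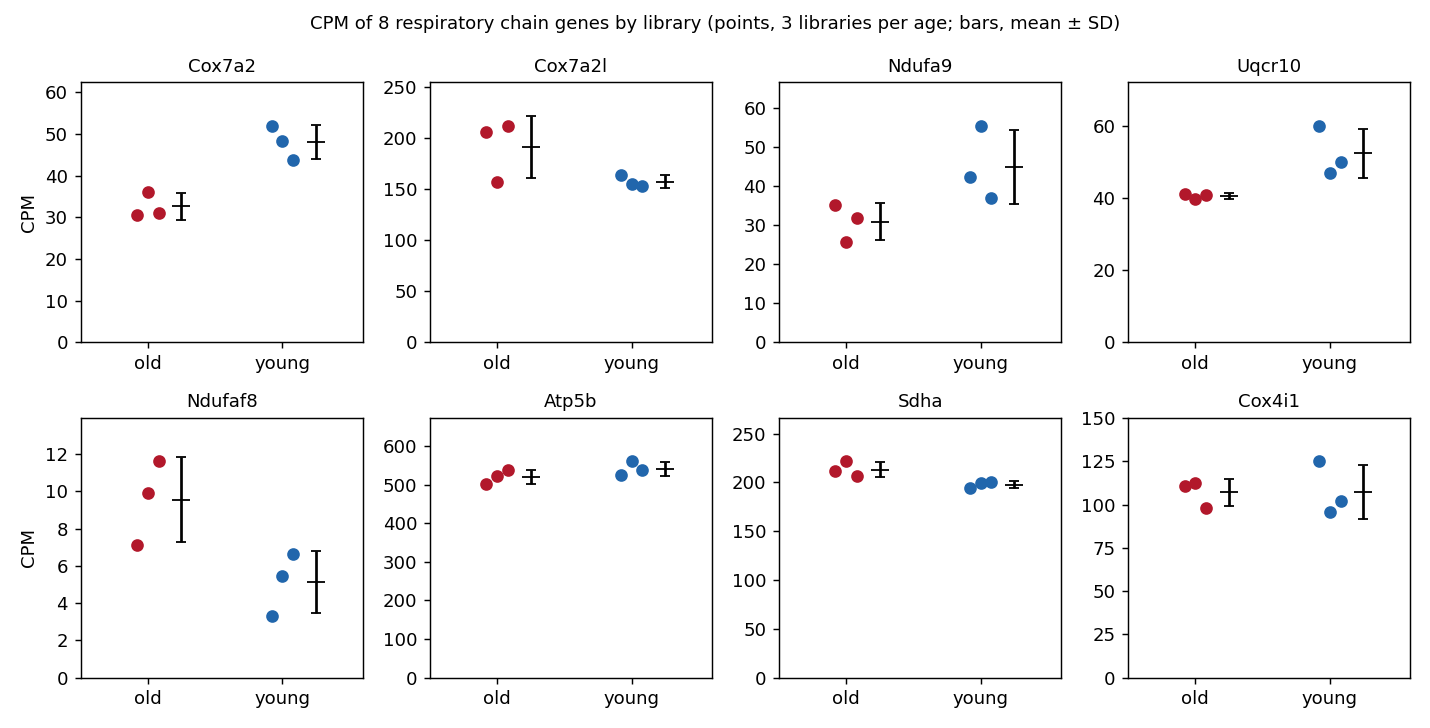
CPM of 8 members by library, with 3 old libraries left of 3 young ones in each panel and bars for mean ± SD. Cox7a2 and Uqcr10 lie lower and Ndufaf8 higher in every old library than in every young one, while Atp5b and Cox4i1 overlap. None of the 8 passed the edgeR test.

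Complex V, the ATP synthase, had a median log2 fold change of 0.03 over 17 genes, 10 above and 7 below 0, and in none of them did the ages separate. Atp5b, the catalytic beta subunit on chromosome 10 from 128083273 to 128090391 and the member with the highest CPM, stood at 502, 523 and 538 CPM in old mice, against 525, 561 and 537 CPM in young mice. This was the most precisely measured member, with a log2 fold change of −0.05 ± 0.09 SE and a 95% interval from −0.26 to 0.15. Atp5a1, the alpha subunit beside it in the catalytic head, averaged 418 ± 29.5 CPM in old and 401 ± 48.0 CPM in young mice (SD, n = 3 each). Atp5c1, the gamma subunit that turns inside the head, stood at 204, 215 and 217 CPM in old mice, against 212, 158 and 165 CPM in young mice, where young replicate 1 lay among the old libraries (0.25 ± 0.13 SE, edgeR adjusted p = 0.378).

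The c subunit that forms the rotor ring is encoded by 3 genes, Atp5g1, Atp5g2 and Atp5g3, which give the same mature protein. Per kilobase, Atp5g2 made up 57.9% ± 5.27 of their level in old and 57.2% ± 0.945 in young mice, Atp5g3 35.6% ± 5.37 and 36.9% ± 1.13, and Atp5g1 6.48% ± 1.22 and 5.93% ± 0.829 (SD, n = 3 each). The mix was thus measured at almost the same mean at both ages, with more spread among the old libraries for Atp5g2 and Atp5g3. The low share of Atp5g1 rests on its annotated length of 2675.5 bases, against 683 for Atp5g2 and 718.5 for Atp5g3. Without division by length, Atp5g1, Atp5g2 and Atp5g3 averaged 46.4, 111 and 73.4 CPM over all 6 libraries. All 3 genes had estimates below 0 (−0.11, −0.19 and −0.27 for Atp5g1, Atp5g2 and Atp5g3). Reads shared between them or with processed pseudogenes make the counts of single members less certain. Atp5s, annotated as coupling factor B, averaged 16.8 ± 2.85 CPM in old and 11.5 ± 2.51 CPM in young mice with overlap (0.55 ± 0.28 SE, edgeR adjusted p = 0.358).

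The members of each complex were also summed. Complex I summed to 1229 ± 53.7 CPM in old and 1238 ± 49.9 CPM in young mice, complex III to 392 ± 22.2 and 403 ± 41.9 CPM, complex IV to 1076 ± 44.99 and 1109 ± 80.1 CPM, and complex V to 2091 ± 27.9 and 2074 ± 91.5 CPM (SD, n = 3 each). Each of these pairs differed by less than the spread between libraries. Complex II, with an old over young ratio of 1.07 and a difference of means larger than either SD, summed to 379, 399 and 373 CPM in old mice, against 374, 345 and 355 CPM in young mice, with young replicate 1 between old replicates 1 and 3. Sdha made up most of these sums, averaging 213 CPM in old and 198 CPM in young mice, and Sdhb alone had an estimate below 0. Within the members' total, complex II took 7.38%, 7.31% and 7.02% in old mice, against 6.65%, 6.80% and 6.73% in young mice, without overlap, and complex V took 39.4% ± 0.756 and 38.98% ± 0.932 (SD, n = 3 each). All members together summed to 5305 ± 164 CPM in old and 5324 ± 279 CPM in young mice, an old over young ratio of 0.996.

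**Figure D5:**
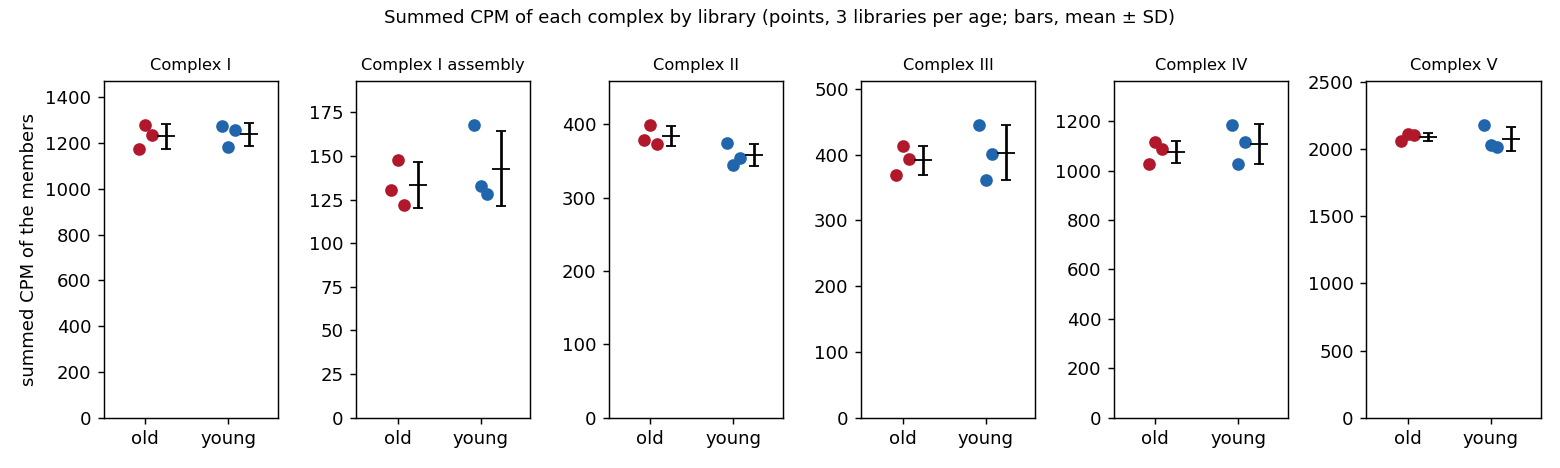
Summed CPM of the members of each complex by library, old left of young, with bars for mean ± SD and axes that start at 0. The old and young libraries overlap in every panel, and complex II stands at 384 ± 13.7 CPM in old and 358 ± 14.8 CPM in young mice.

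Genes of the wider pathway were taken from lists. Of the 4 measured subunits and carriers outside the symbol rule none passed, and Cyc1, cytochrome c1 of complex III, averaged 35.7 ± 1.81 CPM in old and 29.7 ± 5.41 CPM in young mice (SD, n = 3 each). The other 3, Usmg5, Atpif1 (the ATP synthase inhibitor) and Cycs (cytochrome c), had log2 values of −0.47, −0.21 and −0.27. None of 9 other complex I assembly factors, 10 of complexes II and III, 25 of complex IV and 4 of complex V passed (edgeR). Unadjusted p-values under 0.05 numbered 1, 1, 3 and 1 in these lists, against 16.5% of all genes tested. The smallest p-values belonged to Tmem186, Dmac1 and Ecsit (log2 values −0.55, 0.74 and −0.57) for complex I, and to Lyrm7, Uqcc3 and Ttc19 (−1.38, −0.50 and −0.26) for complexes II and III. For complex IV they belonged to Cox16, Cmc1 and Higd1a (−0.69, 0.63 and −0.47), and for complex V to Atpaf2, Tmem70 and Fmc1 (−0.58, 0.15 and −0.20). Of 13 coenzyme Q genes 1 rose, Coq8a, an atypical kinase of coenzyme Q synthesis, with 89.7, 78.7 and 126 CPM in old mice, against 46.4, 47.1 and 62.0 CPM in young mice (log2 fold change 0.92 ± 0.19 SE, edgeR adjusted p = 0.0212). Without old replicate 1 or 3 or young replicate 1 or 2 it no longer passed, and over the fits with 1 library left out its adjusted p ran from 0.0235 to 0.1183. Coq10b (1.196 on the log2 scale) and Coq3 (−0.62) missed the threshold. None of 6 carriers and channels passed, with log2 values of 0.26, 0.17 and 0.16 for Slc25a4, Slc25a5 and Vdac2.

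None of the 16 regulators of mitochondrial biogenesis passed (edgeR). Against 16.5% of all genes tested, 1 of the 16 had an unadjusted p under 0.05. This was the coactivator Ppargc1a, known as PGC-1alpha, at 10.9, 18.1 and 17.1 CPM in old mice, against 9.01, 11.3 and 8.80 CPM in young mice, where young replicate 2 lay just above old replicate 1 (log2 fold change 0.66 ± 0.29 SE, edgeR adjusted p = 0.286). The mitochondrial transcription factor gene Tfb2m and the polymerase gene Polrmt had log2 values of 0.42 and −0.57. Of the 13 mitochondrially encoded subunits, mt-Nd3 and mt-Nd6 of complex I rose and none fell, and the median over the list was 0.13 on the log2 scale. mt-Nd3 stood at 354, 569 and 509 CPM in old mice, against 43.998, 47.4 and 51.5 CPM in young mice (10.01-fold, edgeR adjusted p = 1.18e-06), and it passed without any single library. mt-Nd6 stood at 605, 701 and 682 CPM in old mice, against 488, 496 and 481 CPM in young mice (log2 fold change 0.44 ± 0.10 SE, edgeR adjusted p = 0.0263). It passed without old replicate 1 (adjusted p = 0.0346), but without any other single library its adjusted p ran from 0.0509 to 0.1406. mt-Nd5, at 0.34 on the log2 scale, did not pass. Nor did mt-Nd1, mt-Nd2, mt-Nd4 and mt-Nd4l of the same complex, at −0.18, −0.06, 0.04 and −0.23. Why mt-Nd3 differed from them was not tested. Strand is not stated for the counting, so reads of mt-Nd6 and of its neighbour mt-Nd5 on the opposite strand may be mixed.

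In the authors' deposited table, which gives young over old, none of the 89 members had an adjusted p under 0.05, against 6.17% of the genes with an adjusted p there. The lowest adjusted p in the authors' deposited table among the members was that of Cox7a2 (0.0671), with 0.52 on the log2 scale for young against old. After the sign was turned round, 81 of the 88 members tested in both had the same direction in the authors' deposited table as in the edgeR fit.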

How the data were processed

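HSC RNA was made into low-input libraries, per the labels' protocols. The estimated counts per gene were made by the authors, and tools listed per the submitters' processing notes are FastQC, MultiQC, Salmon and DESeq2, with GRCm38 as build and no version. The deposited estimated counts were whole numbers, so no rounding was needed. The authors' deposited table gives a log2 fold change, with young over old as its sign, and an adjusted p-value per gene. Strandedness and the sort markers are not stated in these sources. The title and the description of young replicate 2 carry different library numbers, and its column was matched by title. Replicates were numbered in sample order, which pairs nothing.

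Identifiers were matched without version to GENCODE M21 (GRCm38), which gave symbols for 16301 of 16312 genes and a median transcript length for every member. The edgeR 4.0.16 fit (R 4.3.3) used its default filter (minimum count 10, minimum total 15), TMM scaling, quasi-likelihood F test of age over all 6 libraries and Benjamini-Hochberg adjustment at 0.05, two-sided. CPM are counts over the TMM-scaled library size, on the usual scale. SEs and 95% intervals come from the fit's information matrix and quasi-likelihood dispersion. The scripts were tested on simulated counts. Alternatives used DESeq2 1.42.0 and limma 3.58.1. The edgeR p-values of 3 against 3 libraries set the age difference against the spread between these samples, which the fit moderates across all genes.

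The members and lists were chosen with earlier results of these data known. Genes named are the 4 smallest p-values and 2 highest CPM of each complex, listed paralogues, members under the filter, and the 3 smallest p-values of each pathway list. The exceptions are Ndufs3 and, for its promoter, Atp5k, picked after their values were seen. The values of 1 complex I member are not reported here, but counts and medians include it.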

Additional observations from a re-analysis of the deposited data

How the results depend on the processing

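No member passed in 12 of 13 alternatives, among them every fit with 1 library left out, and 3 to 7 members had an unadjusted p under 0.05. The DESeq2 Wald test called 1 member, Cox7a2, with 1105 genes called in all, against 570 in edgeR; the cause was not tested. Leaving out 1 library gave 245 to 473 changed genes and 0 members. When only library size was scaled for, the complex V median was −0.026 and its old over young ratio 0.971, and 32 members lay above 0 and 56 below; the median over all genes was then −0.07. Leaving out 1 library moved the medians of complex I from −0.045 to 0.088, complex III from −0.065 to 0.13, complex IV from −0.17 to 0.018 and the assembly factors from −0.19 to 0.0034, so the sign of these medians is not settled. The sign of estimates close to 0 also turned. Uqcrh was −0.0084 and Cox8a −0.019 with library size alone, and Cox4i1 was 0.0031 without a filter and 0.0043 with limma-voom. With 1 library left out, values ran from −0.084 to 0.12 for Cox4i1, −0.18 to 0.028 for Cox6a1, −0.17 to 0.073 for Cox7c, −0.041 to 0.17 for Cox8a, −0.094 to 0.052 for Ndufa10, −0.087 to 0.094 for Sdhb, −0.064 to 0.30 for Uqcrfs1 and −0.0085 to 0.12 for Uqcrh. An offset for transcript length left the members' count at 0. Counting Ndufa4 in complex I, an alternative added after the data were seen, gave medians of 0.0029 for complex I and −0.04 for complex IV. Cox4i2 had no value under the stricter filter of 1 CPM in 3 libraries. No paired analysis was possible because the labels give the 2 groups no shared replicate numbers. The median member's 95% interval, which is not adjusted for the number of genes, reached 0.43 to either side on the log2 scale. The adjusted threshold over all genes is stricter, and Cox7a2 at −0.56 ± 0.17 SE did not pass it in edgeR. Differences larger than 0.43 could thus also be missed for many members.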
